A study of Mus musculus with 2 samples.

Results

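The 41 genes described here encode components and regulators of the mTOR pathway: the subunits of mTOR complexes 1 and 2, the GTPases and lysosomal scaffolds that recruit complex 1, the inhibitors that act under stress, the insulin and PI3K arm, and direct substrates. These 41 genes were chosen by gene symbol, with earlier results of these data known, and all were found among the 32285 features measured. The values come from droplet single-cell RNA-Seq of mitral valve leaflets, with 1 library each of WT and Fbn1 mgR/mgR mice, the latter carrying the mgR allele on both chromosomes. The text of the study gives an age of 12 weeks. The mgR allele carries a neo cassette in an intron, reduces fibrillin-1 and leaves the coding sequence whole. The mgR line was crossed to C57BL/6J, the controls are described as WT littermates in one place and as C57BL/6J mice in another, and an n of 3 is given for the single-cell comparison without its unit or how it divides over the libraries. No drug treatment is given for either library. The comparison asks how the transcripts of a pathway that the study examined by phosphoprotein staining were distributed over the cells of the myxomatous valve.

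The kinase mTOR works in a pair of complexes: complex 1, defined by raptor, drives protein synthesis and restrains autophagy, and complex 2, defined by rictor, phosphorylates Akt. Growth factors act through PI3K and Akt, which relieve the inhibition of the GTPase Rheb by the TSC proteins, whereas amino acids act through the Rag GTPases, which bring complex 1 to the lysosome on the Ragulator scaffold. Most of this control is exerted by phosphorylation and location of proteins, which RNA counts do not measure.

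Cells were assigned by UMIs (unique molecular identifiers, 1 per captured RNA molecule). Fibroblasts held at least 10 UMIs of Col1a2, Col3a1 and Dcn together, macrophages at least 10 of C1qa, C1qb and C1qc, and endothelial cells at least 2 of Pecam1 and Cdh5. Cells that met more than 1 rule were left out, 33 in WT and 348 in mgR, of which 29 and 310 met those of fibroblast and endothelium. This gave 322 WT and 879 mgR fibroblasts, 224 and 1539 macrophages, and 29 and 150 endothelial cells, while 267 and 522 cells met no rule. Kept cells had a median of 5033 UMIs for WT and 7370 for mgR, and 2 barcodes occurred in both libraries. Levels are given as counts per 1000000 UMIs of the class (CPM). Intervals in parentheses are 95% intervals that cover counting error only. With 1 library per genotype there is no replicate check and no test of genotype, and 1 UMI in the WT endothelium already equals 8.51 CPM.

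For fibroblasts and macrophages, markers that the class rules did not use were in their place. The 7 fibroblast markers summed to 7178 CPM in WT fibroblasts and 6768 in mgR fibroblasts, against 11.8 and 12.3 CPM in macrophages. The macrophage markers summed to 13642 and 17636 CPM in macrophages, against 249 and 386 CPM in fibroblasts. Fbn1, the targeted gene, was at 171 CPM in WT and 135 CPM in mgR fibroblasts, a ratio of 0.790 (0.691 to 0.907). The study describes Fbn1 mRNA as severely reduced in mgR mice, and measured it by RT-PCR in cultured dermal fibroblasts. The difference in these counts was modest beside that description, and the reason was not tested. Although the methods restrict the experimental comparisons to male mice, 28.1% of WT and 60.8% of mgR cells held Xist UMIs without UMIs of the 4 Y-linked genes examined (Xist-only cells), and 38.5% and 21.1% held the reverse (Y-only cells). The libraries therefore differed in their make-up by sex-linked transcripts, and ratios are also given within cells of either kind. Red-cell haemoglobin transcripts differed too, with 193 CPM in WT and 1156 CPM in mgR macrophages. The part of these differences in the results below was not tested unless a value within cells of either kind is given.

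Of the 37 members with an entry in the RefSeq promoter table (GRCm38.p6; windows from 250 bases before to 50 bases after a transcript start) 8 held the E-box core CACGTG, which reads the same on both strands and lies within the element bound by TFEB, itself a member, and by related factors. They were Irs1, Irs2, Eif4e, Rragc, Rheb, Lamtor1, Lamtor4 and Fnip1, or 21.6% of the members looked up, compared with 8.09% of all 27025 genes of the table and 12.3% of the 4739 genes at an average of at least 20 CPM in fibroblasts and macrophages. No window was available for Deptor, Eif4ebp1, Lamtor3 or Rps6kb2. The 250 bases before the start are shown for the 3 members that held the core and were also higher in macrophages than in both other classes (below), with CACGTG in capitals. They lie on the plus strand at chr3:138527018-138527267 for Eif4e, the downstream of its listed starts, at chr4:123917183-123917432 for Rragc and at chr11:54437929-54438178 for Fnip1.
Eif4e: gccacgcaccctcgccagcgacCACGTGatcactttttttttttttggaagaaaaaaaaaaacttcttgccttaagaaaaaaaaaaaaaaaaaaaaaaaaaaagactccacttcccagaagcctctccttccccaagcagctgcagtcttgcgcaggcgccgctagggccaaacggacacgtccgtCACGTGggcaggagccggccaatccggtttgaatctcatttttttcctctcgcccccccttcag
Rragc: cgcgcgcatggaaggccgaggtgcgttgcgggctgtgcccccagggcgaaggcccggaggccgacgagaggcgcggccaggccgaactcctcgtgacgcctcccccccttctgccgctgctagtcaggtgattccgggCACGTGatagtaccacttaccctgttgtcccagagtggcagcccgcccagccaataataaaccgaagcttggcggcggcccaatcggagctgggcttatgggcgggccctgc
Fnip1: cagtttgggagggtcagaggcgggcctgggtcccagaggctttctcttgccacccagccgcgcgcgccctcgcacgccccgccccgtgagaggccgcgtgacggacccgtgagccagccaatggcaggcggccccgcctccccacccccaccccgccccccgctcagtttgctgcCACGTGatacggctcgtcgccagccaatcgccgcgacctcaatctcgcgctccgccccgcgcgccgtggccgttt
Eif4e held the core at 228 and 64 bases before the start, Rragc at 112 and Fnip1 at 75. A match is a string of letters in a window and does not show that a factor binds there. Fnip2 and Flcn, the other members with high macrophage levels, had windows without it.

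Members took up similar shares of the RNA in both libraries, with 0.201% of UMIs in WT and 0.197% in mgR fibroblasts, and 0.248% and 0.251% in macrophages. The members with the most UMIs were Rheb, Lamtor2 and Lamtor4 in fibroblasts, with Eif4e, Fnip1 and Lamtor2 in macrophages and Rheb, Lamtor2 and Lamtor5 in the endothelium. Levels of different genes are UMI counts of 3-prime ends and are not set per length, so comparisons are made within a gene. A mean of at least 20 CPM over both libraries was required before ratios were counted. In fibroblasts 26 of the 41 members met it, in macrophages 23, and in the endothelium 28.

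**Figure D1:**
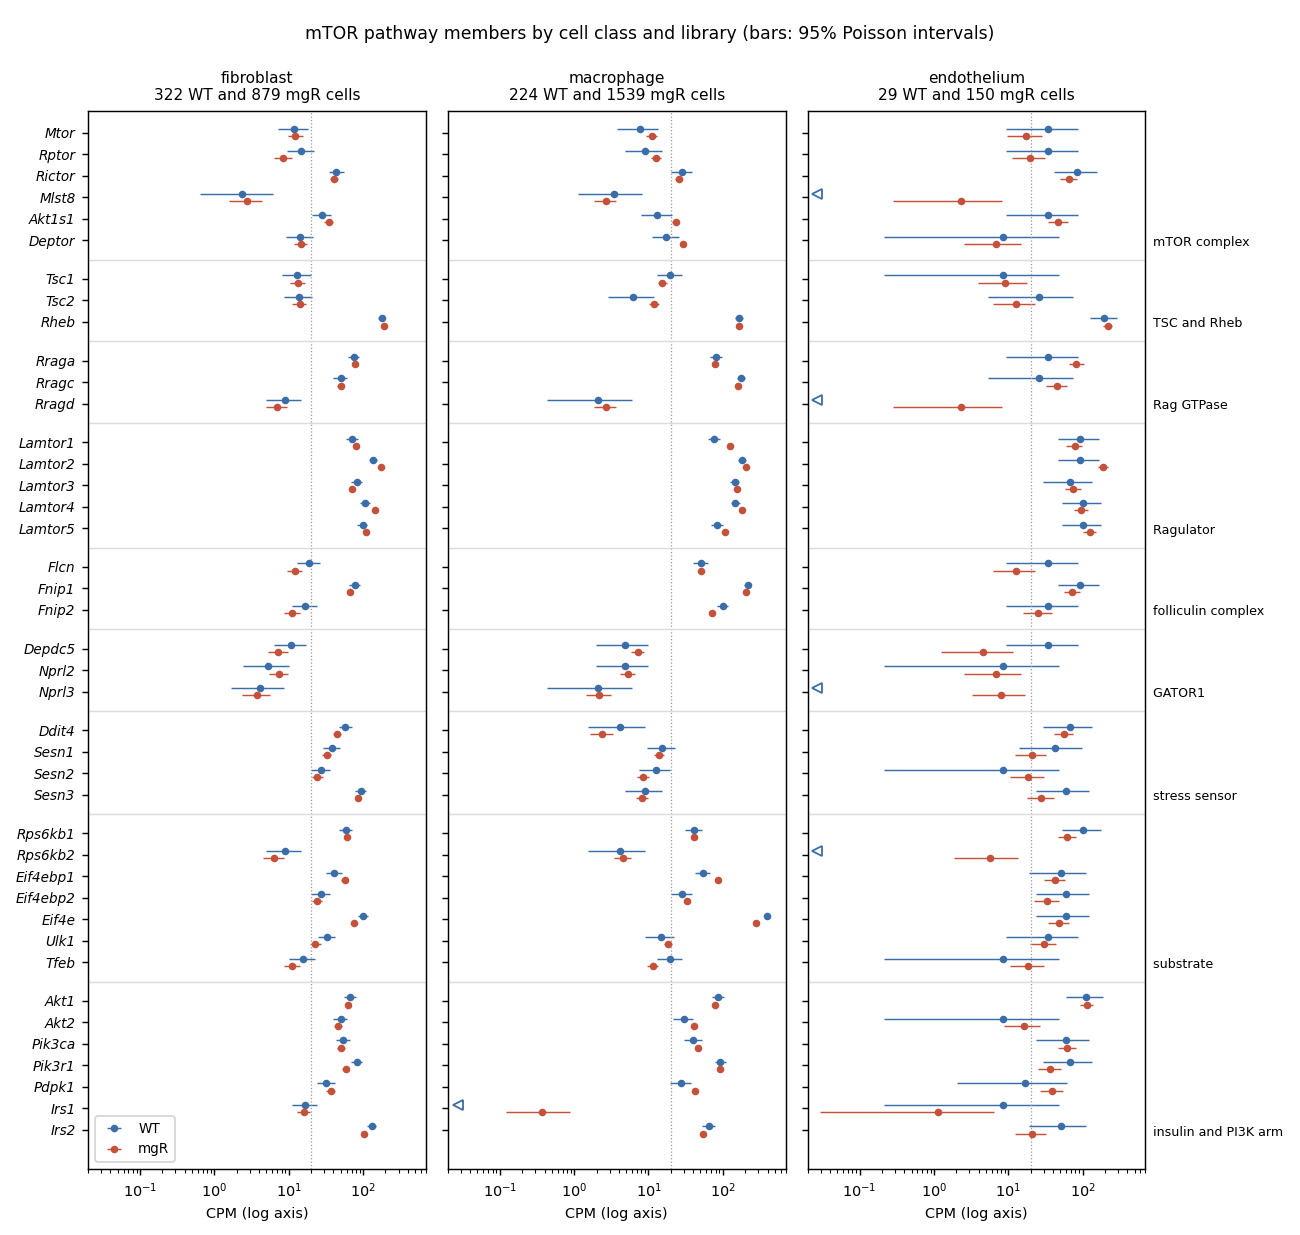
CPM of each of the 41 members (rows, grouped by role) in WT and mgR cells of 3 classes, on a log axis with 95% Poisson intervals. The substrate group also holds Eif4e, which is not itself a substrate. The dotted line marks 20 CPM and an open triangle marks a library with 0 UMIs. Ddit4 and Sesn3 sit far lower in macrophages than in fibroblasts, Eif4e far higher, and the intervals of the 29 WT endothelial cells are wide.

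The main contrast among the members lay between cell classes and was seen in both libraries. In all, 5 members were at least 2-fold higher in macrophages than in fibroblasts in each library: Eif4e, Rragc, Flcn, Fnip1 and Fnip2. Another 3 were at least 2-fold higher in fibroblasts: Ddit4, Sesn1 and Sesn3. Among the 27 members that met the level filter over the classes these are 18.5% and 11.1%, beside 15% and 21% of all 6365 genes passing the same filter, so the counts were near those of other genes in the first direction and lower in the second. Flcn met that filter through its macrophage levels alone.

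The macrophage-high members were the cap-binding protein and part of the lysosomal nutrient machinery. Eif4e, which binds the 5-prime cap of mRNA and is held in check by the 4E-BP proteins, was at 398 CPM in WT and 278 CPM in mgR macrophages, against 101 and 75.9 CPM in fibroblasts. That is a macrophage to fibroblast ratio of 3.93 (3.31 to 4.69) in WT and 3.66 (3.33 to 4.04) in mgR. Rragc, one of the Rag GTPases that tether complex 1 to the lysosome, stood at 175 and 160 CPM in macrophages and at 49.7 and 50 CPM in fibroblasts, ratios of 3.52 (2.74 to 4.56) and 3.21 (2.85 to 3.63). Its partner Rraga showed no such contrast, with ratios of 1.09 (0.837 to 1.41) and 1.01 (0.906 to 1.13). Rragd, under the level filter, went the other way, with ratios of 0.234 (0.043 to 0.83) and 0.386 (0.241 to 0.62). The WT ratio of Rragd rests on 3 UMIs in macrophages and 15 in fibroblasts.

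All 3 genes of the folliculin complex, which acts on RagC and RagD to make the Rag heterodimer active, were in the macrophage-high group. Fnip2 was at 99.0 and 71.2 CPM in macrophages and at 16.6 and 11.1 CPM in fibroblasts, ratios of 5.97 (3.96 to 9.30) and 6.4 (5.01 to 8.29). Fnip1 was at 215 and 203 CPM against 77.0 and 66.4 CPM. Flcn was at 50.5 and 50.3 CPM against 18.9 and 12.1 CPM. In the endothelium Flcn was at 34.0 CPM in WT and 12.6 CPM in mgR, so its macrophage levels alone brought its mean over the level filter. Macrophages and fibroblasts thus held RNA of all 3 genes, at levels in macrophages that were 2.67 to 6.4 times those in fibroblasts of the same library.

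The fibroblast-high members were inhibitors of complex 1 that respond to stress. Ddit4, also called REDD1, which favours TSC-mediated inhibition under hypoxia or glucocorticoids, held 98 UMIs in WT and 279 UMIs in mgR fibroblasts, but 6 and 32 UMIs in macrophages. Its fibroblast to macrophage ratio was 14.0 (6.19 to 39.0) in WT and 18.9 (13.1 to 28.2) in mgR. Sesn3, a member of the sestrins, which inhibit complex 1 through GATOR complexes when leucine is short or under oxidative stress, was at 92.4 and 84.3 CPM in fibroblasts and at 9 and 8.18 CPM in macrophages, and both ratios came to 10.3 (5.83 to 19.7 in WT, 8.38 to 12.8 in mgR). Sesn1 followed with 2.49 (1.51 to 4.24) and 2.33 (1.90 to 2.86), and Sesn2, under the level filter, with 2.19 (1.24 to 4.01) and 2.85 (2.22 to 3.66). All 4 stress inhibitors were therefore lower in macrophages in both libraries, with intervals that did not reach 1.

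The insulin receptor substrates, the adaptors that couple the insulin and IGF1 receptors to PI3K, leaned the same way. Irs1 held 28 WT and 99 mgR UMIs in fibroblasts and 0 and 5 UMIs in macrophages. With the 0 of 1444507 WT macrophage UMIs set at 3 counts, its level was at least 7.98-fold higher in WT fibroblasts, and in mgR the ratio was 42.9 (17.8 to 135). Irs2 was at 131 and 102 CPM in fibroblasts and at 65.1 and 53.5 CPM in macrophages, ratios of 2.01 (1.57 to 2.59) and 1.91 (1.71 to 2.12), the second of which lies just under the 2-fold rule.

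**Figure D2:**
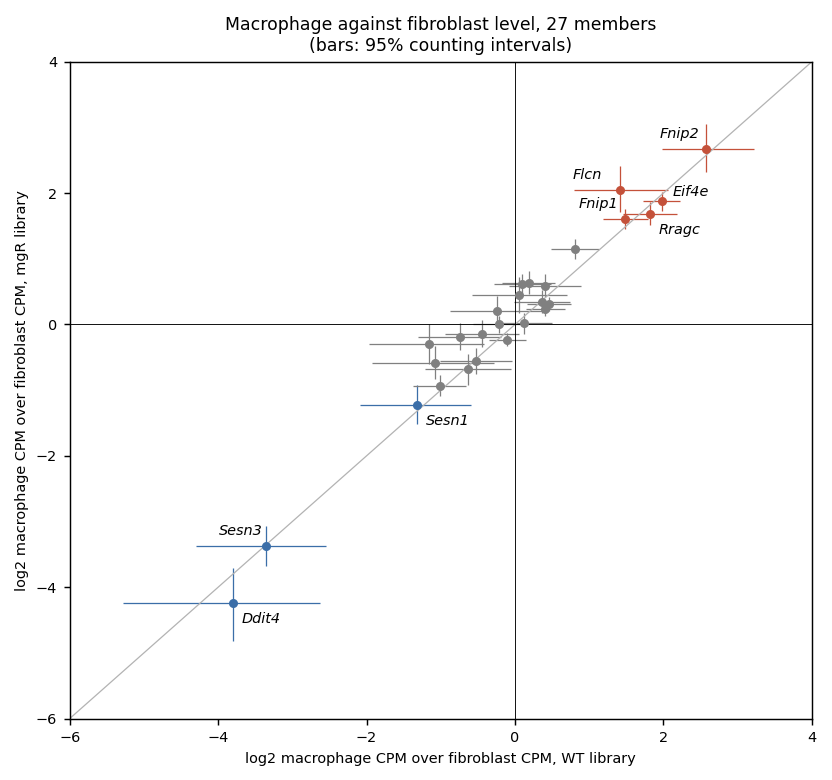
Log2 ratio of macrophage to fibroblast CPM in the WT library (x axis) and the mgR library (y axis) for the 27 members passing the level filter, with 95% counting intervals; the diagonal marks equal ratios. The 5 macrophage-high members sit at the upper right and Ddit4, Sesn3 and Sesn1 at the lower left, close to the diagonal.

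When the endothelium was included, 4 members were at least 2-fold higher in macrophages than in both other classes in both libraries (Eif4e, Rragc, Fnip1 and Fnip2), beside 8.94% of all genes. No member was at least 2-fold higher in fibroblasts than in both other classes (5.37% of all genes), nor in the endothelium (6.35%). Eif4e, for example, was at 59.5 CPM in WT and 48.1 CPM in mgR endothelium. Ddit4 was at 68.0 and 56.2 CPM in the endothelium, close to its fibroblast levels. The WT endothelial values rest on 7 UMIs of Eif4e and 8 UMIs of Ddit4.

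Within the macrophages, cells with at least 1 UMI of Lyve1, Folr2 or Cd163, which mark resident macrophages, numbered 103 in WT and 1106 in mgR, and those without numbered 121 and 433. Here 3 members were at least 2-fold higher in the marked cells in both libraries (Deptor, Fnip2 and Irs2), beside 6.21% of all 5137 genes passing the filter, and none was at least 2-fold lower (2.8% of all genes). Irs2 was at 118 CPM in marked and 19.3 CPM in unmarked WT cells, a ratio of 6.13 (3.5 to 11.5), and at 63.3 and 26.7 CPM in mgR cells, a ratio of 2.37 (1.91 to 2.98). Fnip2 had ratios of 2.30 (1.61 to 3.33) and 2.32 (1.93 to 2.82). Deptor, an inhibitor that binds mTOR itself, had ratios of 3.68 (1.41 to 11.3) and 2.03 (1.54 to 2.72), the first of them from 19 and 6 UMIs. Its levels in unmarked WT and mgR cells were 7.7 and 16.7 CPM, so Deptor met the level filter through the marked cells alone. A cell with more UMIs is more likely to show a marker, so depth and marking are linked here.

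Between the genotypes the members differed little in fibroblasts. None of the 26 was at least 1.5-fold higher in mgR (3.08% of all 6006 genes) and none was at least 1.5-fold lower (5.48%). The counting interval of the ratio lay above 1 for 3 members (12.3% of all genes) and below 1 for 5 (17%). The median log2 ratio of the members was -0.11, beside -0.05 for all genes. In macrophages 4 of 23 members were at least 1.5-fold higher in mgR (8.22% of all 5145 genes) and none lower (4.96%). The interval lay above 1 for 7 members (24.7% of all genes) and below 1 for 2 (14.2%), and the median log2 ratio was 0.01 beside 0.09. The 4 members were Deptor, Lamtor1, Eif4ebp1 and Pdpk1, of which Deptor met the level filter through its mgR level alone.

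**Figure D3:**
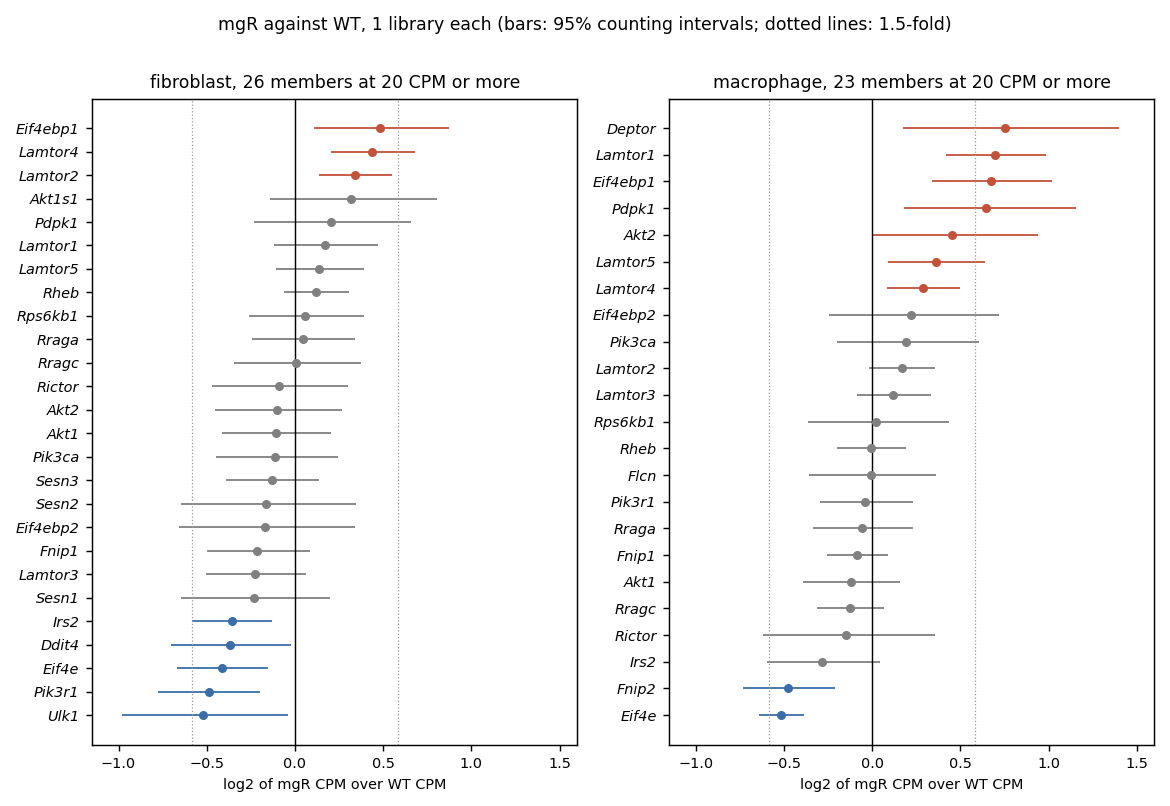
Log2 ratio of mgR to WT CPM for the 26 fibroblast and 23 macrophage members passing the filter, with 95% counting intervals; colored points have intervals that miss 0 and dotted lines mark 1.5-fold. Eif4ebp1 and Lamtor4 lie to the right and Eif4e to the left in both classes.

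The subunits of the mTOR complexes were sparse. Mtor, the kinase, held 20 UMIs in WT and 76 UMIs in mgR fibroblasts, 11.8 and 12.2 CPM, a ratio of 1.03 (0.626 to 1.79). In macrophages it held 11 and 148 UMIs, 7.62 and 11.0 CPM, a ratio of 1.45 (0.784 to 2.96). Differences of Mtor within these intervals were not detectable at this depth. Rptor, the raptor subunit of complex 1, was at 14.8 and 8.38 CPM in fibroblasts, a ratio of 0.566 (0.345 to 0.952) under the level filter, and at 9 and 12.6 CPM in macrophages, a ratio of 1.40 (0.795 to 2.68). Rictor, the scaffold of complex 2, passed the filter and was nearly level, with 0.938 (0.722 to 1.23) in fibroblasts and 0.901 (0.650 to 1.28) in macrophages.

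Of the inhibitory subunits, Deptor was at 17.3 CPM in WT and 29.2 CPM in mgR macrophages, a ratio of 1.69 (1.13 to 2.64). Within the marked and the unmarked macrophages its ratio was 1.19 (0.749 to 2) and 2.16 (0.936 to 6.11). The marked cells, which hold more Deptor, numbered 103 of 224 WT and 1106 of 1539 mgR macrophages. These shares also depend on depth, with medians of 6013 and 8325 UMIs per macrophage. The part of the shares in the Deptor ratio was not tested. Akt1s1, which encodes the inhibitory subunit PRAS40, was under the filter in macrophages and had a ratio of 1.76 (1.11 to 2.97). Mlst8, a subunit of both complexes, held 4 to 36 UMIs per library in fibroblasts and macrophages and allows no comparison.

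Rheb, the direct activator of complex 1, was among the most even members. It was at 178 and 193 CPM in WT and mgR fibroblasts and at 166 and 165 CPM in macrophages, ratios of 1.09 (0.957 to 1.24) and 0.995 (0.871 to 1.14). The genes of its inhibitor were sparse: Tsc1 had ratios of 1.01 (0.628 to 1.71) in fibroblasts and 0.790 (0.531 to 1.22) in macrophages, and Tsc2 1.03 (0.644 to 1.71) and 1.93 (0.993 to 4.30). All 4 of these intervals held 1.

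Ragulator, the pentamer that anchors the Rag GTPases to the lysosome, was higher in mgR as a sum. Its 5 genes together were at 496 CPM in WT and 578 CPM in mgR fibroblasts, a ratio of 1.17 (1.08 to 1.26), and at 635 and 773 CPM in macrophages, a ratio of 1.22 (1.14 to 1.31). Lamtor4 was higher in both classes, at 107 and 144 CPM in fibroblasts, 1.35 (1.15 to 1.6), and at 147 and 179 CPM in macrophages, 1.22 (1.06 to 1.41). Lamtor1, the membrane anchor of the scaffold, was at 76.8 and 124 CPM in macrophages, 1.62 (1.33 to 1.98), and had a ratio of 1.13 (0.923 to 1.39) in fibroblasts. Lamtor2 had ratios of 1.27 (1.10 to 1.47) in fibroblasts and 1.12 (0.989 to 1.28) in macrophages, and Lamtor5 1.10 (0.927 to 1.31) and 1.28 (1.07 to 1.56). Within Xist-only and Y-only cells the Lamtor2 ratio was 1.12 (0.880 to 1.45) and 1.22 (0.967 to 1.55) in fibroblasts, and it lay on either side of 1 in macrophages, at 0.904 (0.742 to 1.11) and 1.40 (1.13 to 1.75). For Lamtor4 these were 1.26 (0.953 to 1.70) and 1.39 (1.065 to 1.83) in fibroblasts. In macrophages they were 1.33 (1.04 to 1.74) and 1.10 (0.889 to 1.36) for Lamtor4. For Lamtor5 in macrophages they were 1.16 (0.855 to 1.61) and 1.11 (0.84 to 1.48), and both intervals held 1. Lamtor3 went the other way in fibroblasts, with 0.856 (0.706 to 1.04). The Rag GTPases that Ragulator holds were level as a sum in fibroblasts, 1 (0.866 to 1.17), and macrophages, 0.933 (0.838 to 1.04).

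The folliculin complex was lower in mgR as a sum, at 112 and 89.6 CPM in fibroblasts, a ratio of 0.797 (0.675 to 0.944), and at 365 and 324 CPM in macrophages, 0.889 (0.812 to 0.975). In macrophages the difference lay in Fnip2, at 99.0 and 71.2 CPM, a ratio of 0.719 (0.602 to 0.863), whereas Fnip1 and Flcn had ratios of 0.943 (0.838 to 1.06) and 0.995 (0.780 to 1.28). GATOR1, the complex of Depdc5, Nprl2 and Nprl3 that switches the Rag GTPases off, held 34 and 114 UMIs in fibroblasts and 17 and 197 UMIs in macrophages over its 3 genes, with ratios of 0.913 (0.618 to 1.38) and 1.24 (0.758 to 2.18).

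Of the stress inhibitors, Ddit4 was at 58.0 CPM in WT and 45.0 CPM in mgR fibroblasts, a ratio of 0.775 (0.614 to 0.986), and the 3 sestrins had ratios from 0.851 to 0.913 with intervals that held 1. The difference in Ddit4 was not seen in Xist-only cells, 1.05 (0.635 to 1.85), and was small in Y-only cells, 0.943 (0.662 to 1.35).

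In the insulin and PI3K arm, Pik3r1, the regulatory p85α subunit of PI3K, was lower in mgR fibroblasts, at 81.7 and 58.2 CPM, a ratio of 0.712 (0.584 to 0.873). It was level in macrophages, 0.974 (0.814 to 1.17). The catalytic subunit gene Pik3ca had ratios of 0.926 (0.732 to 1.18) and 1.14 (0.872 to 1.52). Irs2 was lower in mgR fibroblasts, 0.780 (0.668 to 0.913), but its ratios within Xist-only and Y-only cells were nearer to 1, at 0.899 (0.657 to 1.26) and 0.906 (0.717 to 1.15). Pdpk1, the kinase that activates Akt and S6 kinase, was at 27.0 and 42.3 CPM in macrophages, 1.57 (1.13 to 2.23), and had a ratio of 1.15 (0.851 to 1.58) in fibroblasts. Akt1 was level in both classes, with 0.927 (0.750 to 1.15) and 0.919 (0.763 to 1.11). Akt2 had a macrophage ratio of 1.37 (1 to 1.92) that came to 6.80 (2.31 to 33.1) in Xist-only cells, from 3 WT UMIs, and to 0.911 (0.591 to 1.45) in Y-only cells.

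In the group of substrates and Eif4e, the cap-binding protein and its inhibitor differed in opposite directions. Eif4e was lower in mgR in both classes, with ratios of 0.750 (0.628 to 0.899) in fibroblasts and 0.699 (0.640 to 0.764) in macrophages. Eif4ebp1, which encodes 4E-BP1, the repressor that complex 1 releases from eIF4E by phosphorylation, was at 40.9 and 57.1 CPM in fibroblasts, 1.40 (1.08 to 1.83), and at 54.0 and 86.0 CPM in macrophages, 1.59 (1.27 to 2.03). The related Eif4ebp2 had ratios of 0.888 (0.634 to 1.26) and 1.17 (0.845 to 1.65). Rps6kb1, the S6 kinase gene, was level, with 1.04 (0.833 to 1.31) and 1.02 (0.777 to 1.35). Ulk1, the kinase that starts autophagy and is silenced by complex 1, was at 32.6 and 22.7 CPM in fibroblasts, 0.698 (0.508 to 0.971). Its ratio was 1.84 (0.815 to 5.15) in Xist-only cells, from 6 WT UMIs, and 0.551 (0.335 to 0.906) in Y-only cells, from 35 WT UMIs. Tfeb, a regulator of lysosomal genes, was under the filter, with 0.723 (0.454 to 1.18) in fibroblasts and 0.587 (0.390 to 0.912) in macrophages.

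The lower Eif4e in mgR macrophages held in direction in every subset examined and varied in size. Its ratio was 0.819 (0.7 to 0.964) in Xist-only cells and 0.570 (0.497 to 0.655) in Y-only cells. It was 0.831 (0.729 to 0.951) in macrophages marked by Lyve1, Folr2 or Cd163 and 0.503 (0.442 to 0.574) in the unmarked ones. After each cell was thinned to 2000 UMIs, 45.9% (39.1 to 52.7) of 218 WT and 36.5% (34.1 to 39.0) of 1515 mgR macrophages held an Eif4e UMI, beside 73.2% and 74.3% without thinning, and 15.1% and 13.1% of thinned fibroblasts did. Eif4ebp1 varied more between the marked and unmarked cells, from 2.69 (1.75 to 4.37) to 1.23 (0.923 to 1.66). Lamtor1 was higher in all 4 subsets of macrophages, from 1.34 (1.04 to 1.76) in marked cells to 1.92 (1.42 to 2.64) in unmarked ones. In Xist-only and Y-only fibroblasts the Eif4e ratio was 0.888 (0.632 to 1.28) and 0.775 (0.588 to 1.025), and both intervals held 1. The Eif4ebp1 ratio was 1.95 (1.12 to 3.73) and 1.32 (0.881 to 2.02) in these fibroblasts. In Xist-only and Y-only macrophages it was 1.26 (0.880 to 1.87) and 2.01 (1.36 to 3.1).

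**Figure D4:**
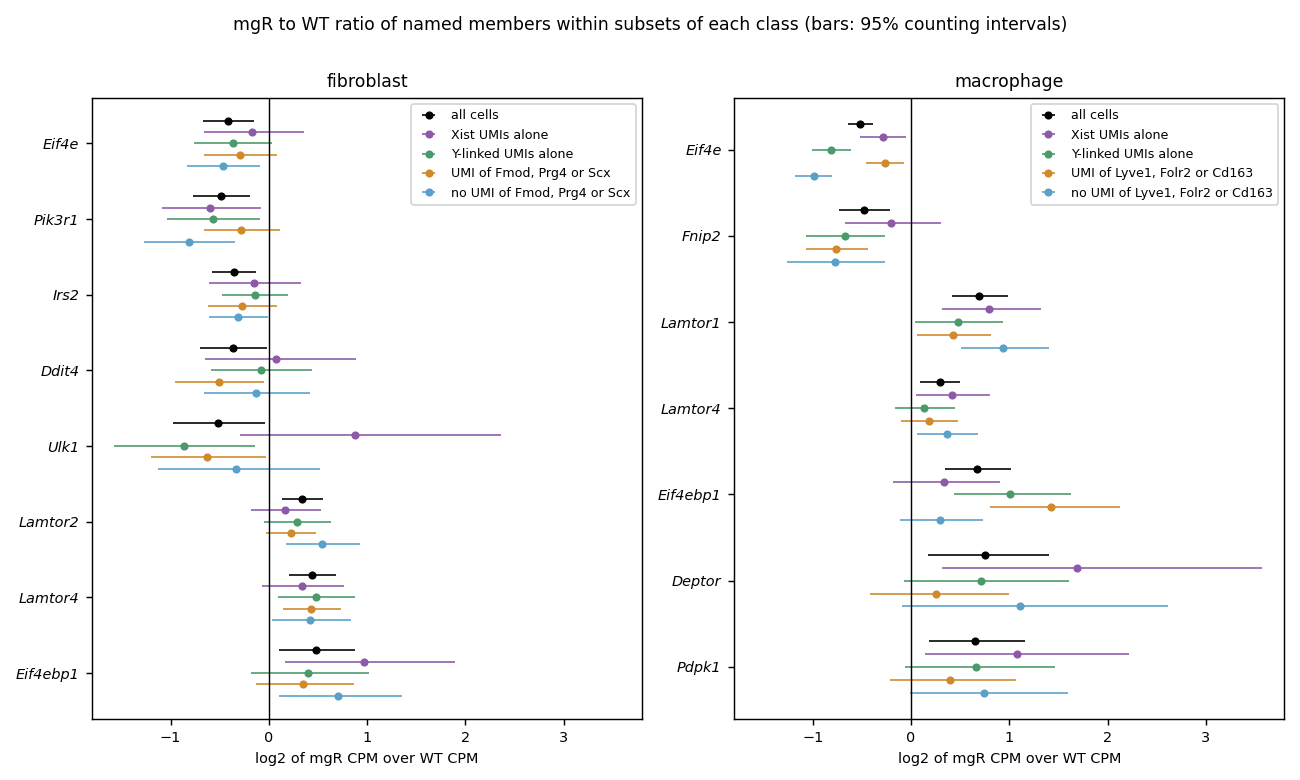
Log2 ratio of mgR to WT CPM for named members in fibroblasts and macrophages, over all cells of the class and within subsets by sex-linked UMIs or by class markers, with 95% counting intervals. Eif4e stays left of 0 and Lamtor4 and Eif4ebp1 right of 0 in all subsets shown, whereas Ddit4 and Ulk1 in fibroblasts cross 0.

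In the endothelium 4 of 28 members were at least 1.5-fold higher in mgR (Rraga, Rragc, Lamtor2 and Pdpk1) and 9 at least 1.5-fold lower (Mtor, Rptor, Rps6kb1, Eif4ebp2, Sesn1, Sesn3, Flcn, Pik3r1 and Irs2), or 14.3% and 32.1%, beside 17.4% and 23% of all 6407 genes. These ratios rest on 2 to 12 WT UMIs per gene, and 4 of the 13 members (Mtor, Rptor, Flcn and Pdpk1) met the level filter through 1 library alone. Of the 28, Lamtor2 alone had an interval that missed 1, with 11 and 165 UMIs, 93.5 and 189 CPM and a ratio of 2.02 (1.10 to 4.13). Endothelial markers that the rule did not use summed to 1616 CPM in WT and 1863 CPM in mgR cells of this class. Fibroblast markers summed to 255 and 338 CPM in these cells, and macrophage markers to 332 and 171 CPM. T cell markers summed to 0 and 95.2 CPM and B cell markers to 0 and 49.3 CPM, so RNA of lymphocytes was found in the mgR class alone. The part of these transcripts in the ratios was not tested.

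The wider pathway was described through lists of genes outside the members, counting those past 1.5-fold among those at 20 CPM or more. These lists were chosen with earlier results of these data known. Over all genes, 3.08% were higher and 5.48% lower in mgR fibroblasts, and 8.22% and 4.96% in mgR macrophages. Of 22 genes whose transcription complex 1 is known to promote through ATF4, SREBP and HIF1α, 10 passed the filter in fibroblasts, of which none was higher and 3 were lower in mgR (Phgdh, Mthfd2 and Fasn), with a median log2 ratio of -0.28. In macrophages 12 passed, of which none was higher and 2 were lower (Slc7a11 and Idi1), with a median of -0.38. Mthfd2, a mitochondrial enzyme of the folate cycle, was at 71.1 CPM in WT and 45.6 CPM in mgR fibroblasts, 0.642 (0.517 to 0.802), and Slc7a11, the cystine transporter, at 111 and 50.6 CPM in macrophages, 0.457 (0.384 to 0.546). Both medians were below those of all genes, -0.05 and 0.09.

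Of 8 genes of the translation machinery under mTOR control, 7 passed in each class. Rps6, the ribosomal protein whose phosphorylation reports S6 kinase activity, was higher in mgR, at 715 and 1138 CPM in fibroblasts, 1.59 (1.5 to 1.69), and at 613 and 816 CPM in macrophages, 1.33 (1.24 to 1.43), and the list medians were -0.03 and -0.01. Eif4a1 was lower in mgR macrophages, at 952 and 693 CPM, 0.728 (0.688 to 0.771), and Pdcd4 was higher in mgR fibroblasts, 1.405 (1.12 to 1.77). Of 11 autophagy and TFE genes, 9 passed in each class. Sqstm1, the autophagy receptor p62, was lower, at 477 and 359 CPM in fibroblasts, 0.754 (0.696 to 0.819), and at 1388 and 845 CPM in macrophages, 0.609 (0.581 to 0.639). Rb1cc1, a subunit of the ULK complex, was higher in macrophages, 1.70 (1.36 to 2.16), and so was Ulk2 by the 1.5-fold rule.

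Further upstream, no gene of 16 PI3K and receptor genes or of 9 AMPK and LKB1 genes was past 1.5-fold in fibroblasts or macrophages. The PI3K list had 6 and 8 genes over the filter and medians of -0.31 and -0.07, and the AMPK list 4 and 3 genes and medians of -0.05 and 0.17. Of 16 other nutrient-sensing genes, 5 and 4 passed, with medians of 0.13 and -0.31, and only the glutamine transporter Slc1a5 was past 1.5-fold, lower in macrophages. Of 6 other complex 2 genes 2 passed in each class, and Sgk1, a kinase that complex 2 activates, was lower, 0.701 (0.610 to 0.808) in fibroblasts and 0.656 (0.537 to 0.806) in macrophages, the latter past 1.5-fold. Of 9 FoxO targets, which Akt restrains, 9 passed in fibroblasts and 6 in macrophages, with medians of 0.06 and 0.02. In fibroblasts Ccng2 was lower, 0.551 (0.443 to 0.688), and Klf2 was higher, 1.43 (1.32 to 1.56). In macrophages Klf4 was higher, 1.41 (1.29 to 1.55), Cited2 was lower, 0.749 (0.679 to 0.829), and Bcl6 was lower by the 1.5-fold rule.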

How the data were processed

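Single cells of mitral valve leaflets were digested with collagenase and elastase, sorted for viability and captured with the 10x Genomics 3-prime version 3 chemistry. Deposited values are counts of UMIs for each gene and barcode, which the authors made with Cell Ranger 7.1.0 on mm10, per the labels (submitters' processing notes). Positions were taken from GENCODE M21 and RefSeq, both on GRCm38. Here cells with 200 to 5000 genes and at most 10% mitochondrial UMIs were kept (875 of 1104 WT and 3438 of 3802 mgR barcodes). UMIs were summed per library and class, scaled to CPM and given exact Poisson, conditional binomial or Clopper-Pearson intervals with SciPy 1.17.1; they cover counting error only. No test was made, since each genotype had 1 library. Scrublet was run through scanpy 1.11.5, and doublets were not removed. Log2 ratios in medians used a prior count of 0.5.

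The members, lists and comparisons were chosen with earlier results of these data known. Named were Mtor, Rptor, Rictor, Tsc1, Tsc2 and Rheb, members past a fold rule, the 3 members with the most UMIs per class, and up to 2 genes per list with the largest ratio at 50 CPM or more. The macrophage against fibroblast rule, the comparison by Lyve1, Folr2 or Cd163, the call by counting interval and further members with values were added after the data had been seen. The scripts were tested on simulated counts.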

Additional observations from a re-analysis of the deposited data

How the results depend on the processing

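With 1 library per genotype no replicate could be left out, and genotype cannot be told apart from anything else that differed between the libraries, such as depth or sex-linked make-up. No paired analysis was possible because each group holds 1 sample. Depth limits the sparse members, and the endothelium holds 29 WT cells. The median log2 ratio of the members ranged from -0.24 to 0.04 in fibroblasts, -0.08 to 0.10 in macrophages and -0.84 to -0.14 in the endothelium over the alternatives. Of the alternatives for counts and medians 127 stayed within their limits and 24 moved, and for single members 546 stayed within the counting interval, 42 left it and 12 turned a member past 1.5-fold to the other direction. Whatever its size, the sign differed from the reported value in 27 of 204 alternatives in fibroblasts, 19 of 216 in macrophages and 21 of 180 in the endothelium, among them Ulk1 and Ddit4 in Xist-only fibroblasts, Akt2 in Y-only macrophages and Mtor in macrophages with a UMI of Lyve1, Folr2 or Cd163. Eif4e stayed lower in mgR, and Eif4ebp1 and Lamtor4 higher, in fibroblasts and macrophages under all 12 alternatives run for each.

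The fibroblast count of members past 1.5-fold, 0 in the main analysis, was 1 with cells of more than 1 class kept or with per-cell means, 4 after thinning, 2 with a 5 CPM filter, 3 in Xist-only cells, 2 in Y-only cells, and 2 and 3 in cells with and without a UMI of Fmod, Prg4 or Scx. The macrophage count of 4 became 7 with the 5 CPM filter, 2 with a 50 CPM filter, 7 in unmarked cells and 0 at 2-fold. The endothelial count of 13 became 5 with cells of more than 1 class kept, 4 with the 50 CPM filter, 21 in Y-only cells and 7 at 2-fold. Members 2-fold higher in fibroblasts than in both other classes numbered 1 after thinning and 1 in Y-only cells, and 2 at 1.5-fold, where 1 was highest in the endothelium. The macrophage over fibroblast count of 5 became 3 with the 50 CPM filter, and the fibroblast over macrophage count of 3 became 5 with the 5 CPM filter, 0 with the 50 CPM filter and 5 at 1.5-fold. The counts under these alternatives are given without the share of all genes under the same setting. Fewer cells or UMIs widen the ratios of every gene, so the counts are not read as results about the members.

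The 12 turns of members past 1.5-fold were in the endothelium, with these log2 ratios; the cause was not tested. With class thresholds doubled, Rptor and Rps6kb1 came to 0.019 and Pdpk1 to -0.31. With cells of more than 1 class kept, Rragc came to -0.14. After thinning, Pik3r1 came to 0.71 and Pdpk1 to -0.084. In Xist-only cells, Mtor came to 0.10 and Rragc to -0.31. In Y-only cells, Rptor came to 1.03, Rps6kb1 to 0.38, Eif4ebp2 to 1.27 and Pdpk1 to -0.84.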

Other observations

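Some genes outside the pathway had larger ratios than the members. Of 9 circadian genes, 6 passed the level filter in fibroblasts and 3 were at least 1.5-fold higher in mgR (Nr1d1, Nr1d2 and Dbp), beside 3.08% of all genes. Their median log2 ratio over the genes that passed was 0.59. Dbp, a clock output factor, was at 24.3 CPM in WT and 94.6 CPM in mgR fibroblasts, a ratio of 3.90 (2.84 to 5.49), and Nr1d1, the repressor REV-ERBα, at 42.0 and 108 CPM, 2.56 (2 to 3.32). In macrophages 2 passed and both were higher, beside 8.22% of all genes, with a median of 0.85.

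Of 10 immediate early and heat shock genes, the heat shock genes Hspa1a and Hspa1b, which encode inducible HSP70, were lower in mgR in both classes. Hspa1b was at 152 and 41.9 CPM in fibroblasts, 0.277 (0.232 to 0.330), and Hspa1a at 207 and 111 CPM in macrophages, 0.535 (0.472 to 0.608); reads of these near-identical genes may be divided uncertainly. The list medians were 0.01 and -0.33. Of 8 glucocorticoid-responsive genes, 7 and 6 passed with medians of -0.15 and -0.02. Errfi1 was lower in macrophages, 0.467 (0.412 to 0.532), as was Dusp1, 0.604 (0.563 to 0.650), while Zbtb16 was higher in fibroblasts and Klf9 in macrophages by the 1.5-fold rule. Ddit4 is itself a known glucocorticoid target, and its values are given above.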
